A study of Mus musculus with 34 samples.

Results

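The 10 genes described here act in protein breakdown and in the removal of mitochondria: the proteasome genes Psmb10, Psmd2, Psme3 and Psme4, the proteasome-linked genes Psme3ip1 and Nfe2l1, the atrogin gene Fbxo32, the calpain gene Capn1, and the autophagy and mitophagy genes Ambra1 and Bnip3l. They were taken by symbol from the 637 genes that had probes of a single symbol in both deposited value tables. Earlier results of these data were known when they were chosen. Each gene had 1 of the 1200 probes of a table. Total RNA of mouse hindlimb and diaphragm muscle was measured on 34 2-colour arrays.

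The mdx groups came from mice that lack dystrophin, and the BL10 groups from the strain that has it. The treated mice received L-arginine, the substrate of nitric oxide synthases, and their arrays form one value table. In it, mdx hindlimb, BL10 hindlimb, mdx diaphragm and BL10 diaphragm had 1 array each at 3, 5, 9 and 12 weeks of age, which makes 4 arrays a group. The untreated table held the same 4 combinations and ages, with a Sample 1 and a Sample 2 at 12 weeks in mdx hindlimb and mdx diaphragm, so that those groups had 5 arrays. The labels give neither dose nor route of L-arginine, and do not say whether arrays came from separate animals or from pools, so a p-value reflects the scatter among arrays alone, and that scatter may be technical. No table holds both treated and untreated arrays, and the tables belong to different array platforms. The effect of L-arginine therefore cannot be told apart from table and platform, and the contrast is called a table difference. The probe of each gene described here has a different position in table order on each platform. For Psme3 it was 920 in the untreated table and 19 in the L-arginine table. Each table difference thus compares different spots, and whether these carry the same sequence was not tested.

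Per the channel labels, 1 channel held RNA of the strain at 12 weeks and the other RNA of the strain at the named age. The values compare an age with 12 weeks, so they are no expression levels, and a log2 ratio of 0 means equal signal. Each difference between strains, tissues or tables below is a difference between such ratios, and not between expression levels. The ratio was read as named age over 12 weeks, which is likely but not settled by the sources used here. With the ratio turned, every sign below turns. On a 12-week array both channels carry the same label, so its ratio compares no ages, and this holds for every 12-week value below. The labels do not say whether the 12-week RNA of treated arrays came from treated mice. Fewer cells of a type and less RNA per cell cannot be told apart in whole muscle.

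The proteasome is a barrel of proteases that degrades proteins, most of which have been tagged with ubiquitin, and its regulatory caps and activators decide what enters the barrel. Muscle that wastes loses protein through this pathway, with atrogin as the muscle ligase that attaches ubiquitin, while calpains cut structural proteins when calcium enters the fibre. Autophagy carries whole organelles to the lysosome, and mitophagy is its form for mitochondria. Dystrophin-deficient fibres leak calcium, break down and regenerate, and the breakdown pathways have been studied in them for that reason.

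Depth is not defined for arrays, and their number limits the precision. The median ratio of an array was 0.94 to 1.22 in the L-arginine table and 0.73 to 1.08 in the untreated table. Values of 0 or below, which have no log2, numbered 2 to 36 per L-arginine array and 0 to 225 per untreated array. Of the 340 values of the 10 genes, 10 were of this kind: 8 of the 40 in untreated BL10 hindlimb, and 2 of the 160 in the L-arginine table, both of Psmb10. Such values were dropped. All 10 genes passed the filter, a log2 value on 75% or more of each table's arrays, and were tested. Tests were made with limma across all genes, with group and age as terms and Benjamini-Hochberg adjustment, and a gene is called where its adjusted p is below 0.05. Markers of adult muscle fibres were measured for 8 genes of the list used, but as ratios they cannot show which tissue an array held. For 1 array, treated BL10 hindlimb at 9 weeks, the channel labels say mdx while the title says BL10, and the title was followed.

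**Figure D1:**
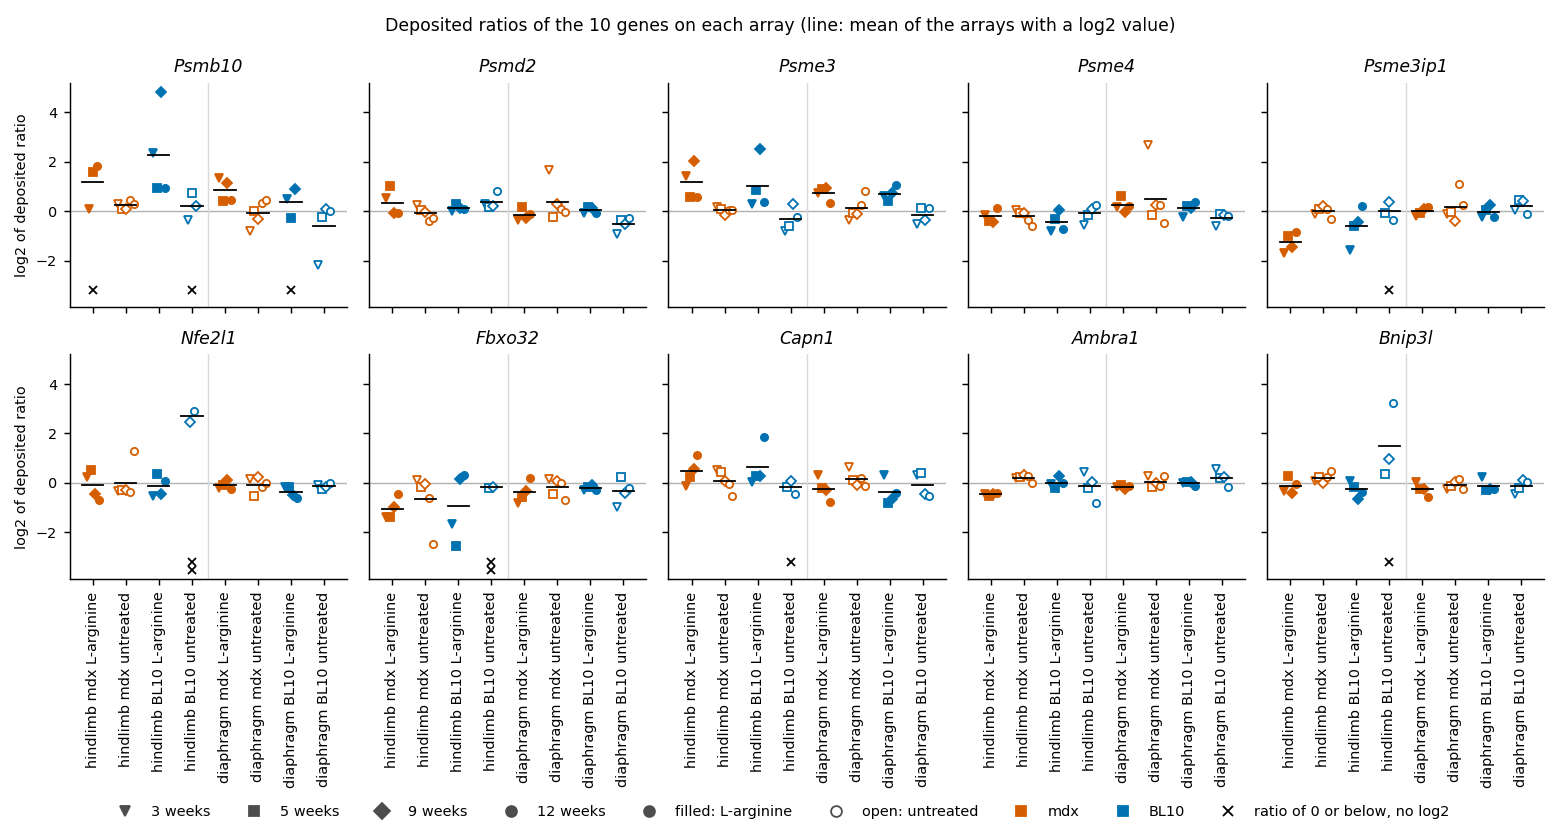
Each point is the log2 of the deposited ratio of 1 gene on 1 array, by tissue, strain and treatment. Filled points are L-arginine arrays, open points untreated arrays, marker shapes the age in weeks, black lines the mean over arrays with a log2 value, and crosses at the bottom ratios of 0 or below. Psme3 lies above 0 on all 16 L-arginine arrays, Psme3ip1 is lowest in L-arginine hindlimb, and the 2 untreated BL10 hindlimb points of Nfe2l1 stand at 2.46 and 2.92.

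Of the proteasome genes, Psme3 and Psmb10 had the high ratios of the L-arginine table. Psme3 encodes a nuclear activator that opens the proteasome without ubiquitin, and Psmb10 a catalytic subunit of the immunoproteasome, the form that interferon induces. Psme3 had ratios of 2.72, 1.50, 4.12 and 1.50 at 3, 5, 9 and 12 weeks in L-arginine mdx hindlimb, and 1.12, 1.06, 0.91, 1.02 (Sample 1) and 1.04 (Sample 2) in untreated mdx hindlimb. In BL10 hindlimb its ratios were 1.22, 1.81, 5.81 and 1.28 with L-arginine and 0.58, 0.66, 1.21 and 0.85 untreated. All 4 L-arginine arrays thus lay above all untreated arrays in each strain, by little in BL10, and the 9-week array was the highest of each treated hindlimb group. In diaphragm the L-arginine ratios were 1.25 to 1.90 in mdx and 1.34 to 2.08 in BL10, against 0.79 to 1.75 and 0.69 to 1.10 untreated. Psme3 was above 1 on all 16 L-arginine arrays, as were 13 of 637 genes (2.04%), and 12 genes, Psme3 included, had a mean log2 ratio at least as high as its 0.90 ± 0.63 (SD, n = 16). On the 18 untreated arrays its mean was -0.07 ± 0.37 (SD) and it was above 1 on 9.

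The table difference of Psme3 was called in BL10 hindlimb, at 1.35 ± 0.35 SE on the log2 scale (limma, adjusted p 0.0226). It missed the threshold in mdx hindlimb (1.12 ± 0.33, adjusted p 0.0560), mdx diaphragm (0.61 ± 0.33, adjusted p 0.508) and BL10 diaphragm (0.86 ± 0.35, adjusted p 0.529). Neither the change of this difference with strain (-0.24 ± 0.34, adjusted p 0.843) nor with tissue (0.50 ± 0.34, adjusted p 0.453) was called. The BL10 call was lost without the treated 9-week array (0.89, adjusted p 0.0985), the array with mdx in its channel labels. It was also lost without the untreated 3-week array (1.26, adjusted p 0.0948) or the untreated 12-week array (1.39, adjusted p 0.0621). Those untreated arrays held 225 and 128 values of 0 or below. In mdx hindlimb a call appeared when a treated array was left out: BL10 hindlimb at 9 weeks (adjusted p 0.0266) or 12 weeks (adjusted p 0.0431), or mdx hindlimb at 12 weeks (adjusted p 0.0391). In the L-arginine table the probes of Psme3 and Psmb10 are next to each other in table order, at positions 19 and 18. The median log2 ratio of the 5 probes on each side of Psme3 ran from -0.01 to 1.12 in L-arginine mdx hindlimb and from 0.21 to 0.81 in L-arginine BL10 hindlimb. On 12 of the 16 L-arginine arrays Psme3 exceeded this neighbour median. With a running median over 51 neighbours subtracted, the BL10 hindlimb difference was 0.90 (adjusted p 0.125) and the mdx hindlimb difference 0.73 (adjusted p 0.245).

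Psmb10 spread more. Its ratios at 3, 5, 9 and 12 weeks were 1.06, 3.00, -0.83 and 3.55 in L-arginine mdx hindlimb, and 1.23, 1.05, 1.06, 1.37 and 1.22 in untreated mdx hindlimb, with the 12-week samples last. In BL10 hindlimb they were 5.14, 1.90, 28.57 and 1.92 with L-arginine, and 0.79, 1.68, 1.15 and -1.20 untreated. The groups overlapped in mdx, and in BL10 the treated arrays lay above the untreated arrays that had a log2 value. The fitted table difference was 2.04 ± 0.62 in BL10 hindlimb with 4 treated and 3 untreated values (adjusted p 0.0572), and 1.12 ± 0.60 in mdx hindlimb with 3 and 5 (adjusted p 0.314). A call appeared in BL10 hindlimb when any of 4 arrays was left out, with adjusted p from 0.0237 to 0.0414, and the value was 1.20 without the treated 9-week array. In diaphragm the table differences were 0.93 ± 0.54 in mdx and 0.98 ± 0.62 in BL10, with adjusted p of 0.536 and 0.723. Its mean log2 ratio of 1.22 ± 1.26 (SD, 14 arrays with a value) was the highest of the 637 genes on the L-arginine arrays, with its 2 negative ratios left out. The median of its 5 neighbours on each side, Psme3 among them, ran from 0.41 to 1.27 in L-arginine mdx hindlimb. In L-arginine BL10 hindlimb it ran from 0.16 to 0.81. Psmb10 lay above this neighbour median on 12 L-arginine arrays and below it on 2.

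The promoters of these 2 genes and of Psme3ip1, the gene of a protein known in human cells to bind the Psme3 product, are shown because Psme3 and Psmb10 had high ratios in the same table and all 3 windows hold the same 6 letters. The windows run from 250 bases before to 50 bases after the start, with motif letters in capitals (RefSeq, GRCm38.p6, 5′ to 3′ on the gene's strand; chr11:101315963-101316262, plus; chr8:105938343-105938642, minus; chr8:94601677-94601976, minus).
Psme3: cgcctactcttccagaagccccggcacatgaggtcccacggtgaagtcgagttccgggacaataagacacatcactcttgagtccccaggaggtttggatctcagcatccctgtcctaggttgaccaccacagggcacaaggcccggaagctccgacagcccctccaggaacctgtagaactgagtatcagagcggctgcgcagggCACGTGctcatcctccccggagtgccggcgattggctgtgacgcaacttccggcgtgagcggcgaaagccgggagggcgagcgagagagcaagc
Psmb10: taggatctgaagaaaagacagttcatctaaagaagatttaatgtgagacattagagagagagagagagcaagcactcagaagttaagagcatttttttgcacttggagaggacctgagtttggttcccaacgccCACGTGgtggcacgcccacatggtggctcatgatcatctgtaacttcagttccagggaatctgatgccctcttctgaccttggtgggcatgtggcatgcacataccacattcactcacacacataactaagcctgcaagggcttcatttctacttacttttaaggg
Psme3ip1: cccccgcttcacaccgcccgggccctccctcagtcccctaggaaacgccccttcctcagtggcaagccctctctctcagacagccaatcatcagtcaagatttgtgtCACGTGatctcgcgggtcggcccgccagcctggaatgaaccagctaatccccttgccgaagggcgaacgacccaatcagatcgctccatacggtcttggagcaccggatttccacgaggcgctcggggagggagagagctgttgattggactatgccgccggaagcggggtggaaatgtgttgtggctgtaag
The capitals mark CACGTG, a palindrome that holds the core ACGTG of the hypoxia response element on both strands, overlapping. Of 32851 promoter windows of the reference, 19.6% held ACGTG on either strand and 7.15% held CACGTG. The palindrome was counted after the matches were seen, and the 3 windows were picked for it, so their sharing it is no result. Psme3ip1 had low and not high ratios in L-arginine hindlimb. The other window of Psme3ip1 held none of the motifs searched. Windows were found for 8 of the 10 genes, 14 in all, and Fbxo32 and Bnip3l are named only. Of the other windows, 1 of the 5 of Nfe2l1 held ACGTG once, and that of Psme4 held TGACNNNGC once, the core of the antioxidant response element that Nfe2l1 can bind, which 12.4% of windows held. No window of the 8 genes held the forkhead motif GTAAACA, found in 3.65% of windows. These matches describe letters and not binding sites.

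Psme3ip1 was called between the tissues in the L-arginine table. In L-arginine hindlimb its ratios at 3, 5, 9 and 12 weeks were 0.31, 0.50, 0.37 and 0.56 in mdx, and 0.34, 0.65, 0.74 and 1.14 in BL10. In L-arginine diaphragm they were 0.88, 0.95, 1.05 and 1.13 in mdx, and 0.85, 1.04, 1.18 and 0.86 in BL10. All mdx hindlimb arrays lay below all diaphragm arrays, and 1 BL10 hindlimb array, at 12 weeks, lay among them. Hindlimb was lower than diaphragm by a log2 difference of -0.90 ± 0.17 SE as the mean of both strains (limma, adjusted p 0.0218), and the median of all genes was 0.17. In this comparison 10 of 633 genes were called (1.58%), 7 higher and 3 lower in hindlimb, and Psme3ip1 was the member of the 10 among them. The 5 probes on each side of Psme3ip1 in table order were also lower in hindlimb. The median over arrays of their median log2 ratio was -0.15 in mdx and -0.24 in BL10 hindlimb, against 0.16 and 0.22 in diaphragm. Psme3ip1 lay below this neighbour median on 13 of the 16 L-arginine arrays. The call was lost without the treated mdx hindlimb array at 9 weeks (-0.84, adjusted p 0.0620) or 12 weeks (-0.92, adjusted p 0.0546), the BL10 hindlimb array at 5 weeks (-0.88, adjusted p 0.0507), the mdx diaphragm array at 5 weeks (-0.93, adjusted p 0.0538) or the BL10 diaphragm array at 9 weeks (-0.86, adjusted p 0.0579).

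In untreated muscle the same tissue difference of Psme3ip1 was -0.21 ± 0.22 (adjusted p 0.810). Its ratios were 0.80 to 1.16 in untreated mdx hindlimb and 0.79 to 1.29 on the 3 untreated BL10 hindlimb arrays with a log2 value, against 0.75 to 2.14 and 0.92 to 1.38 in mdx and BL10 diaphragm. Whether the tissue difference differed between the tables did not pass (-0.66 ± 0.28, adjusted p 0.196). Within mdx hindlimb the table difference of Psme3ip1 was called at -1.20 ± 0.26 (adjusted p 0.0177), and the treated arrays, at most 0.56, did not overlap the untreated ones, at least 0.80. This call was lost without the untreated mdx hindlimb array at 5 weeks (-1.18, adjusted p 0.0734) or 9 weeks (-1.15, adjusted p 0.0564). In BL10 hindlimb the difference was -0.49 ± 0.30 (adjusted p 0.366). Between strains in L-arginine hindlimb Psme3ip1 differed by -0.63 ± 0.24 (adjusted p 0.197).

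**Figure D2:**
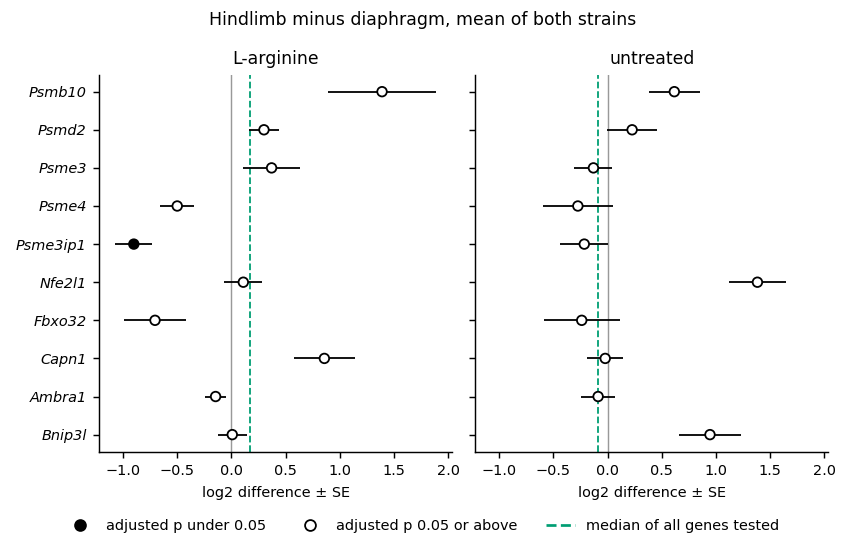
Points are log2 differences of hindlimb minus diaphragm, averaged over both strains, with bars of 1 SE, for the L-arginine table and the untreated table. Filled points have an adjusted p below 0.05, and the dashed line is the median of all genes tested. Psme3ip1 at -0.90 in the L-arginine table is the filled point, and Nfe2l1 at 1.38 in the untreated table is the farthest right of that panel.

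Other tissue differences of the L-arginine table did not pass. Psme4, whose product is a large activator that caps the proteasome, had -0.50 ± 0.16 (adjusted p 0.0942), and a call appeared when BL10 hindlimb at 9 weeks was left out (-0.61, adjusted p 0.0338). Psmb10 had 1.39 ± 0.50 (adjusted p 0.122), with a call without the treated mdx hindlimb array at 3 weeks (1.90, adjusted p 0.0417). Capn1 had 0.86 ± 0.28 (adjusted p 0.0988) and Fbxo32 -0.71 ± 0.29 (adjusted p 0.155). Psme3 had 0.37, Psmd2 0.30, Nfe2l1 0.11, Bnip3l 0.01 and Ambra1 -0.15, with adjusted p from 0.198 to 0.972. Of 637 genes none was called between tissues in the untreated table (0%), and 54 had an unadjusted p below 0.05. There Nfe2l1 had 1.38 ± 0.26 (adjusted p 0.0874) and Bnip3l 0.95 ± 0.28 (adjusted p 0.364), both with the untreated BL10 hindlimb values described below, and the other 8 genes lay between -0.27 for Psme4 and 0.62 for Psmb10. Of the gene lists on atrophy signalling, Mstn, the secreted inhibitor of muscle growth myostatin, was called in the L-arginine tissue difference at -0.90 ± 0.14 (adjusted p 0.0154). Mstn was also the gene whose log2 ratios most resembled those of Psme3ip1, with Pearson's r of 0.724 over 32 arrays after centring in each table, as a description.

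Psmd2 and Psme4 had their highest ratios on the same array, untreated mdx diaphragm at 3 weeks. On it the median log2 ratio of the 5 probes on each side was 0.97 around Psmd2 and 0.46 around Psme4. That array held 53 values of 0 or below. Psmd2 encodes a scaffold subunit of the cap that receives ubiquitin-tagged proteins. In untreated mdx diaphragm Psmd2 had ratios of 3.18, 0.85, 1.24, 1.07 and 0.97 at 3, 5 and 9 weeks and on the 12-week samples, against 0.52, 0.77, 0.69 and 0.83 in untreated BL10 diaphragm. All mdx arrays lay above all BL10 arrays, as for 3.45% of all genes. The strain difference of 0.91 ± 0.32 was not called (adjusted p 0.399), and it was 0.54 without the mdx array at 3 weeks. Psme4 had 6.43 on that array, and 0.72 to 1.19 on the other 4 arrays of that group. Its ratios in untreated BL10 diaphragm were 0.65, 0.93, 0.91 and 0.87, and the strain difference was 0.82 ± 0.46 (adjusted p 0.563), or 0.19 without that array. The lowest Psme4 ratio, 0.58, was in L-arginine BL10 hindlimb. Over 34 arrays the log2 ratios of Psmd2 and Psme4 had Pearson's r of 0.599, and over the 33 arrays other than that one it was 0.178. In the L-arginine table Psmd2 was at 0.94 to 2.03 in mdx hindlimb and 1.01 to 1.23 in BL10 hindlimb, against 0.77 to 1.13 and 0.94 to 1.11 in diaphragm, and its table differences ran from -0.53 in mdx diaphragm to 0.56 in BL10 diaphragm with none called.

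Nfe2l1 was the one gene called between strains in untreated muscle, and that call rests on few values. Nfe2l1 is the transcription factor that raises proteasome subunit genes when proteasomes are inhibited. In untreated mdx hindlimb its ratios were 0.79, 0.81, 0.82, 0.77 (Sample 1) and 2.44 (Sample 2). In untreated BL10 hindlimb they were -103.51, -5.41, 5.49 and 7.58 at 3, 5, 9 and 12 weeks. By the labels the 12-week value, 7.58, compares RNA of the same age. The negative values were the lowest of all 1200 probes on their arrays, and the positive ones the highest and the fourth highest. At 3, 5, 9 and 12 weeks, 225, 2, 0 and 128 of the 1200 values on these arrays were 0 or below. Whether the spot failed on these arrays, or carries another sequence than the annotation names, was not tested, since scanner values were not used here, and each Nfe2l1 difference from this group is limited by that. Of the untreated BL10 hindlimb group, only the arrays at 9 and 12 weeks enter the fit. In it the mdx ratios were lower than the BL10 ratios by a log2 difference of -2.62 ± 0.41 (limma, adjusted p 0.0146), the 1 call among 637 genes (0.157%). The call was lost without the BL10 array at 12 weeks (-2.48, adjusted p 0.530) or the mdx array at 9 weeks (-2.50, adjusted p 0.0960). With values of 0 or below set to the lowest positive ratio of the array, the difference was 0.66 and was not called. In all groups other than untreated hindlimb Nfe2l1 lay between 0.61 and 1.44.

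The same BL10 arrays give the table difference of Nfe2l1 in BL10 hindlimb, with treated ratios of 0.69, 1.29, 0.72 and 1.05. It was -2.86 ± 0.40 (adjusted p 9.19e-05) and was called when any single array was left out, at -2.69 to -3.04. It was 0.70 with values of 0 or below set to the lowest positive ratio. In mdx hindlimb it was -0.08 ± 0.30 (adjusted p 0.919), with treated ratios of 1.19, 1.44, 0.73 and 0.61. The table difference of hindlimb minus that of diaphragm was called for Nfe2l1, at -1.36 ± 0.33 (adjusted p 0.0420), among 7 of 632 genes (1.11%), and was lost in 26 of 34 leave-outs of 1 array, with adjusted p up to 0.0834. The difference of its table differences between strains was 1.49 ± 0.33 (adjusted p 0.0853), and no gene was called there (0%; 58 unadjusted p below 0.05).

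Bnip3l encodes a receptor on the outer mitochondrial membrane that draws mitochondria into autophagosomes. In untreated mdx hindlimb its ratios were 1.05, 1.18, 0.99, 1.19 and 1.40, with the 12-week samples last. In untreated BL10 hindlimb they were -1.85, 1.27, 1.95 and 9.27, the last of these the second highest of 1200 probes. By the labels that 12-week value, 9.27, compares RNA of the same age. Its array held 128 values of 0 or below. Nfe2l1 and Bnip3l were thus both negative at 3 weeks and both high at 9 and 12 weeks, but at 5 weeks Nfe2l1 was negative and Bnip3l was not. In L-arginine muscle it lay at 0.75 to 1.20 in mdx hindlimb and 0.64 to 1.05 in BL10 hindlimb, and at 0.67 to 1.01 and 0.81 to 1.16 in diaphragm. The table difference in BL10 hindlimb, over 4 treated and 3 untreated values, was -1.79 ± 0.37 (adjusted p 0.00717). It was -0.95 (adjusted p 0.0630) without the untreated 12-week array, and 0.26 with values of 0 or below set to the lowest positive ratio. In mdx hindlimb it was -0.30 ± 0.33 (adjusted p 0.659). The untreated strain difference in hindlimb was -1.34 ± 0.42 (adjusted p 0.368). It was -0.44 without the BL10 array at 12 weeks, and 0.57 with values of 0 or below set to the lowest positive ratio. Bnip3l and Nfe2l1 had Pearson's r of 0.78 over 32 arrays, which leave out the arrays where either was negative and hold the BL10 arrays at 9 and 12 weeks where both were high. Without the untreated BL10 hindlimb arrays it was 0.292 over 30 arrays. The gene most like Bnip3l was Csf1 at 0.877 over 33 arrays, or 0.507 over 30 without that group. In untreated BL10 hindlimb the mean log2 ratio of the 8 adult muscle fibre markers ran from -1.18 to -0.02 between arrays, against -0.13 to 0.05 in untreated mdx hindlimb; its part in these results was not tested.

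Ambra1 had a narrow range in L-arginine mdx hindlimb. Its product binds beclin and starts autophagosome formation, also at mitochondria. Ratios at 3, 5, 9 and 12 weeks were 0.73, 0.68, 0.72 and 0.75 in L-arginine mdx hindlimb, and 0.96, 0.87, 1.21 and 0.99 in L-arginine BL10 hindlimb. In untreated muscle they were 1.15, 1.18, 1.25, 1.21 and 0.99 in mdx hindlimb and 1.37, 0.87, 1.03 and 0.56 in BL10 hindlimb. The treated mdx arrays lay below every treated BL10 array and every untreated mdx array. The table difference in mdx hindlimb was called at -0.71 ± 0.18 (adjusted p 0.0334), against a median of 0.22 over all genes. It was lost without any of 7 of the 9 mdx hindlimb arrays: the treated ones at 3, 5 and 9 weeks and the untreated ones at 5, 9 and 12 weeks (both samples), at -0.66 to -0.73 with adjusted p from 0.0513 to 0.104. It was also lost with the table-order trend removed (-0.46, adjusted p 0.147). In BL10 hindlimb the difference was 0.14 ± 0.19 (adjusted p 0.760), and the change of the difference with strain was not called (-0.43 ± 0.19, adjusted p 0.509).

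Between strains in L-arginine hindlimb Ambra1 differed by -0.48 ± 0.14 on the log2 scale, with groups that did not overlap, and was not called (adjusted p 0.118); the adjusted p lay between 0.0905 and 0.481 under the alternatives. In L-arginine diaphragm its ratios were 0.90, 0.94, 0.83 and 0.91 in mdx and 1.00, 1.02, 1.02 and 0.91 in BL10, with a difference of -0.14 ± 0.14 (adjusted p 0.998). Between strains in L-arginine hindlimb, Lyz2 was called higher in mdx among 4 macrophage markers, and none of 6 fibroblast and matrix markers was called. The mean log2 ratio of 4 macrophage markers ran from 0.99 to 1.32 in L-arginine mdx hindlimb and from -0.39 to 0.36 in L-arginine BL10 hindlimb, and that of 6 fibroblast and matrix markers from 0.96 to 1.65 and from 0.17 to 1.15. Their part in the result was not tested.

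**Figure D3:**
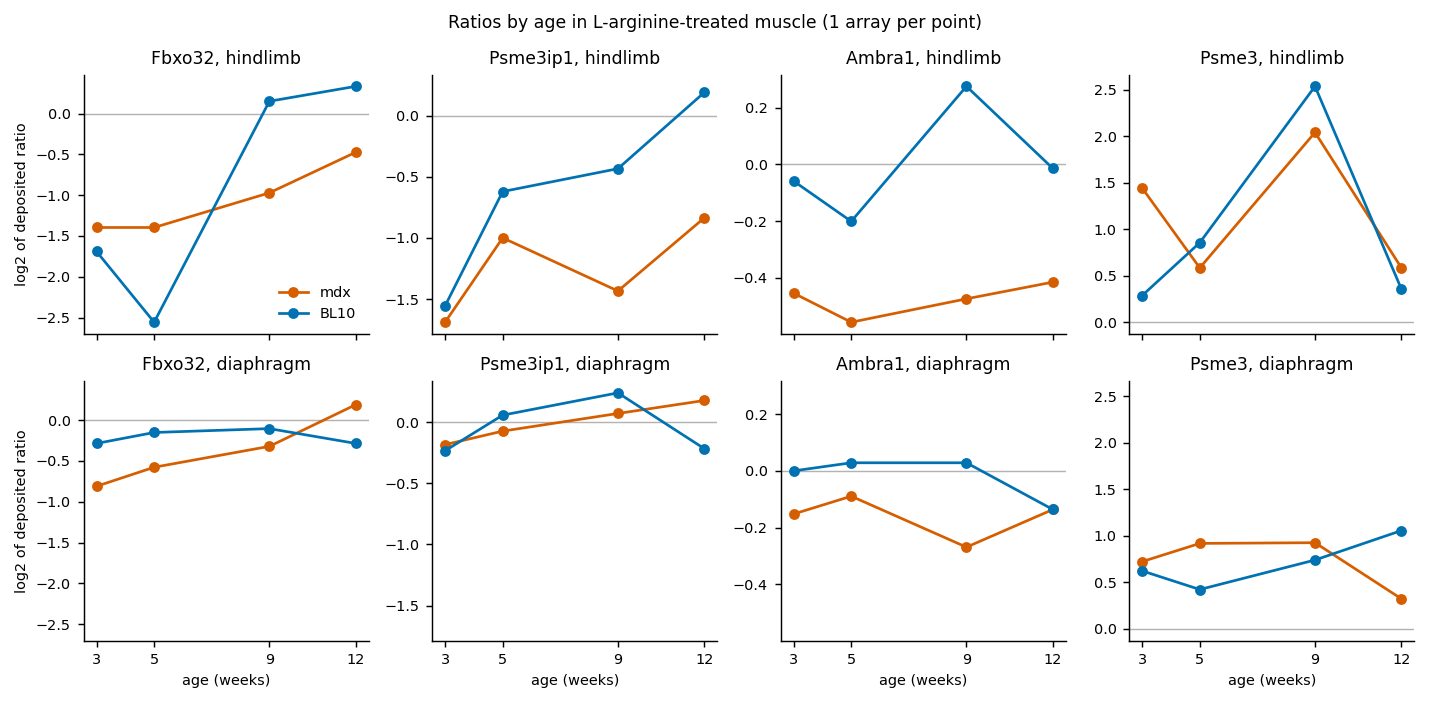
Log2 of the deposited ratio against age in weeks for 4 genes in L-arginine hindlimb (top) and diaphragm (bottom), 1 array per point, mdx in orange and BL10 in blue. Ambra1 in mdx hindlimb lies below BL10 at each age, Psme3 in hindlimb peaks at 9 weeks in both strains, and Fbxo32 in hindlimb is lowest at 3 or 5 weeks.

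Fbxo32, the F-box protein atrogin, which selects muscle proteins for ubiquitin tagging, had low ratios in young L-arginine hindlimb. At 3, 5, 9 and 12 weeks they were 0.38, 0.38, 0.51 and 0.72 in mdx and 0.31, 0.17, 1.11 and 1.26 in BL10. In L-arginine diaphragm they were 0.57, 0.67, 0.80 and 1.14 in mdx and 0.82, 0.90, 0.93 and 0.82 in BL10. The 3- and 5-week arrays were the low ones in both hindlimb groups, and the strains overlapped. Over the 16 L-arginine arrays, the age terms against 12 weeks were -0.99 ± 0.41 at 3 weeks, -1.11 ± 0.41 at 5 weeks and -0.25 ± 0.41 at 9 weeks, and age as a whole was not called (adjusted p 0.736). Untreated ratios were 1.07, 0.88, 0.96, 0.65 and 0.18 in mdx hindlimb, with the 12-week samples last, and -1.68, 0.87, 0.90 and -0.04 in BL10 hindlimb. Its table differences were -0.40 ± 0.48 in mdx hindlimb and -0.71 ± 0.63 in BL10 hindlimb, the second over 2 untreated values, with adjusted p of 0.689 and 0.560.

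Capn1, the catalytic subunit of a calcium-activated protease of the cytoplasm, had ratios of 0.92, 1.19, 1.48 and 2.20 in L-arginine mdx hindlimb and 1.03, 1.22, 1.22 and 3.65 in L-arginine BL10 hindlimb at 3, 5, 9 and 12 weeks. In L-arginine diaphragm they were 1.23, 0.87, 0.81 and 0.58 in mdx and 1.23, 0.57, 0.64 and 0.76 in BL10. The 12-week array was the highest in each treated hindlimb group, and the 3-week array in each treated diaphragm group. By the labels both channels of a 12-week array hold 12-week RNA, so 2.20 and 3.65 are no age difference. An interaction of age and tissue was not fitted. The untreated ratios lay between 0.69 and 1.54 in all groups, apart from -0.32 on the BL10 hindlimb array at 3 weeks. The strain differences of Capn1 were -0.16 ± 0.40 in L-arginine hindlimb and 0.14 ± 0.40 in L-arginine diaphragm (adjusted p 0.849 and 0.998).

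No age term was called for any of the 10 genes or for any other gene in either table (0% each). By unadjusted p below 0.05, 36 of 633 genes in the L-arginine table and 30 of 637 in the untreated table differed with age. Of the 10 genes in the untreated table, Psmb10 had the farthest term from 12 weeks, -1.12 ± 0.33 at 3 weeks, and Capn1 had 0.73 ± 0.23 at 3 weeks, with adjusted p of 0.815 for age as a whole in each. For Psmb10 the BL10 diaphragm array at 3 weeks had a ratio of 0.22. The farthest terms of the other 8 genes in that table were -0.70 for Bnip3l and -0.52 for Nfe2l1 at 5 weeks, 0.67 for Fbxo32 at 9 weeks, and at 3 weeks 0.64 for Psme4, -0.51 for Psme3, 0.50 for Ambra1, 0.38 for Psmd2 and -0.22 for Psme3ip1. In the L-arginine table Psmb10 had 1.67 ± 0.78 and Psme3 0.98 ± 0.37 at 9 weeks, and Psme3ip1 -0.74 ± 0.24 at 3 weeks. At 5 weeks the terms were -0.57 for Capn1, 0.54 for Nfe2l1 and 0.45 for Psmd2. The farthest terms of Bnip3l (0.30), Psme4 (-0.24) and Ambra1 (0.07) were the smallest, and the adjusted p for age as a whole ran from 0.736 to 0.967 over the 10 genes.

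Taking mdx minus BL10, none of the 10 genes was called in L-arginine hindlimb or in L-arginine diaphragm, where 0.158% of 633 genes were called in each, nor in untreated diaphragm (0% of 637; 62 unadjusted p below 0.05). The groups did not overlap for 1 of the 10 in L-arginine hindlimb (Ambra1, against 6.30% of all genes) and 0 in L-arginine diaphragm (5.64%). In untreated muscle they did not overlap for 1 in hindlimb (Nfe2l1, against 3.92%) and 1 in diaphragm (Psmd2, against 3.45%). Values of 0 or below were left out, and those of Nfe2l1 in untreated BL10 hindlimb lay below all mdx ratios. Whether the strain difference differed between hindlimb and diaphragm was called for no gene in either table (0% each; 42 and 31 unadjusted p below 0.05 in the L-arginine and untreated tables). For the 10 genes this change ran from -1.34 for Psmb10 and -0.67 for Psme3ip1 to 0.40 for Psmd2 in the L-arginine table. In the untreated table it ran from -2.63 for Nfe2l1 (adjusted p 0.139), -1.34 for Psmd2 and -1.29 for Bnip3l to 0.50 for Ambra1. The strain differences of members not named above lay between -0.70 for Psmb10 and 0.23 for Psme4 in L-arginine hindlimb, and those of all 10 between -0.18 for Psmd2 and 0.64 for Psmb10 in L-arginine diaphragm. The median strain difference of the 10 genes in L-arginine hindlimb was -0.04, against 0.13 for all genes, and in L-arginine diaphragm it was 0.02 for both.

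**Figure D4:**
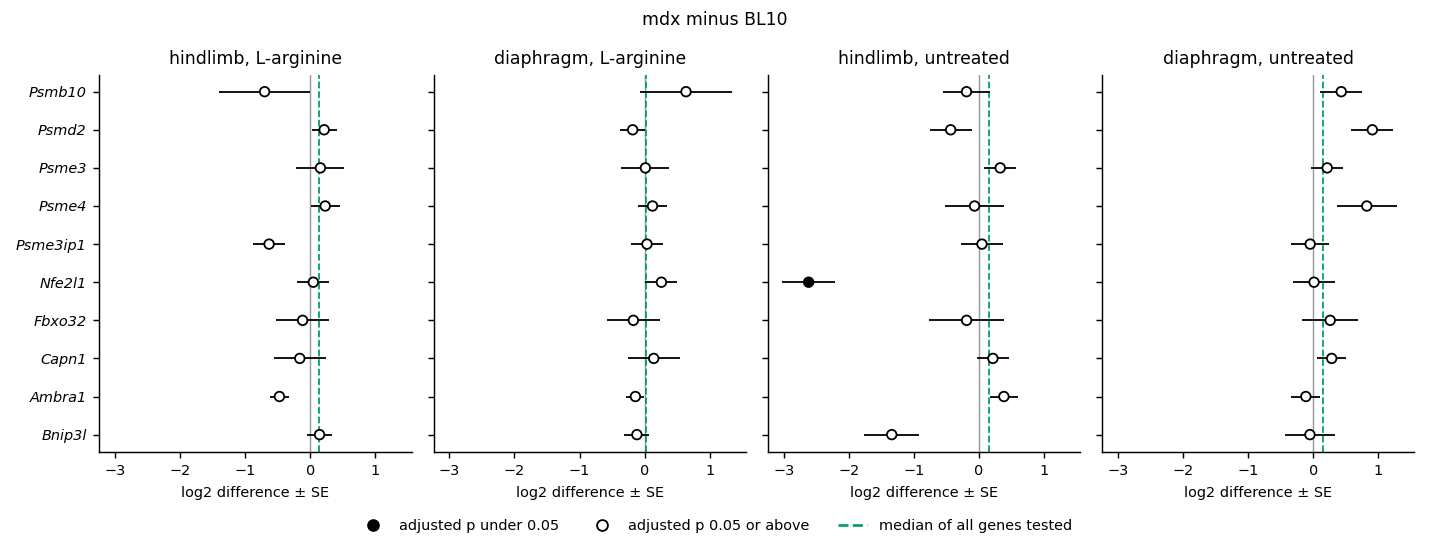
Points are log2 differences of mdx minus BL10 with bars of 1 SE for each tissue and table. Filled points have an adjusted p below 0.05, and the dashed line is the median of all genes tested. Nfe2l1 in untreated hindlimb, at -2.62, is the filled point, and Ambra1 in L-arginine hindlimb stands at -0.48.

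Across the table differences, 2 of the 10 genes were called in mdx hindlimb (Psme3ip1 and Ambra1, both lower with L-arginine), where 3.01% of 632 genes were called, 16 higher and 3 lower. In BL10 hindlimb 3 were called, Psme3 higher and Nfe2l1 and Bnip3l lower, where 4.91% were called, 25 higher and 6 lower. Of the members not called, Capn1 had 0.37 in mdx hindlimb and 0.75 in BL10 hindlimb, and Psme4 -0.03 and -0.35. None was called in mdx diaphragm (0.633% of 632 genes) or BL10 diaphragm (0%; 49 unadjusted p below 0.05). The treated and untreated arrays did not overlap for 3 of the 10 in mdx hindlimb (10.3% of all genes), 4 in BL10 hindlimb (9.42%), 0 in mdx diaphragm (5.02%) and 2 in BL10 diaphragm (10.8%). Values of 0 or below were left out of these counts. For Nfe2l1 and Bnip3l in BL10 hindlimb, the dropped untreated ratios lay below all treated ones, so the deposited arrays lie on both sides. The median table difference of the 10 genes was -0.06 in mdx hindlimb and -0.29 in BL10 hindlimb, against 0.22 and 0.24 for all genes. With each array centred on its median, Psme3ip1 had -1.31 and Ambra1 -0.82 in mdx hindlimb, both called, and Psme3 had 1.18 in BL10 hindlimb (adjusted p 0.0782). Of the 6 fibroblast and matrix markers, Col1a2 and Fmod were called higher with L-arginine in both hindlimb comparisons. Of the 8 adult muscle fibre markers, Tnni1 was called higher in mdx hindlimb, and Mylpf and Tnni2 in BL10 hindlimb. Their part in the result was not tested.

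**Figure D5:**
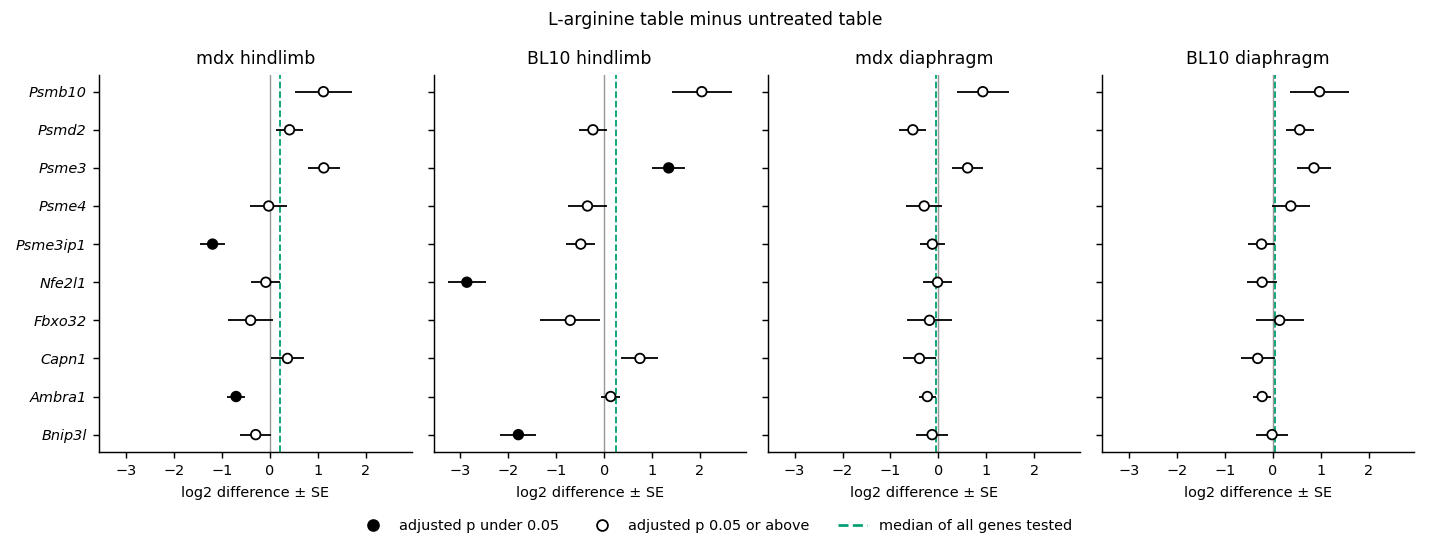
Points are log2 differences of the L-arginine table minus the untreated table for the 10 genes in 4 tissue and strain groups, with bars of 1 SE. Filled points have an adjusted p below 0.05, and the dashed line is the median of all genes tested. The 5 filled points all lie in hindlimb, 2 in mdx and 3 in BL10.

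Few other genes of these pathways were measured. The 6 proteasome genes of the list are all among the 10. Of the 5 further ubiquitin genes, the ligases Nedd4 and Ube3b and the deubiquitinases Usp2, Usp7 and Usp47, none was called in any comparison; Ube3b came nearest, lower in L-arginine hindlimb than diaphragm by -0.66 ± 0.16 (adjusted p 0.0547). The cathepsin gene Ctsf, the other protease measured, was not called. Of 3 further autophagy genes, Gabarap and Map1lc3b, which coat autophagosomes, were not called, and Lamp1, a lysosome membrane protein, was called higher with L-arginine in BL10 hindlimb (0.98 ± 0.25, adjusted p 0.0205). Of the atrophy signalling genes other than Nfe2l1, Mstn was called as given above and Akt2 and Rela were not. Among the 10, the closest pair after Nfe2l1 and Bnip3l was Psmd2 and Psme4, then Psmb10 and Psme3 (Pearson's r 0.555 over 31 arrays). The most opposed was Ambra1 and Bnip3l (-0.676 over 33 arrays, or -0.372 over 30 without untreated BL10 hindlimb). All these genes share arrays, and Psmb10 and Psme3 are also next to each other in the order of the L-arginine table, so the values are descriptions. The genes of most similar pattern were Rabgap1 for Psme4 (0.83), Pagr1a for Psmb10 (0.759), Tnfrsf1a for Ambra1 (0.722), Dusp26 for Psme3 (0.686), Usp2 for Capn1 (0.639), 2310065F04Rik for Psmd2 (0.634) and Neat1 for Fbxo32 (0.599), over 28 to 34 arrays, and Grn for Nfe2l1 (0.783 over 32, or 0.686 over 30 without untreated BL10 hindlimb).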

How the data were processed

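Total RNA of mouse hindlimb and diaphragm was compared on 34 2-colour arrays. The deposited values of both tables are read as linear ratios of the 2 channels, from the values themselves; scanner, background correction, normalisation, scaling, dyes and the direction of the ratio are not given in the sources used for this work. Probes were named from the platform annotation, which dates from before later gene names, and only where it gives 1 symbol. Positive ratios were turned into log2 and averaged per gene, values of 0 or below were dropped, and no further normalisation was made. A gene was tested if at least 75% of a table's arrays gave it a log2 value: 633 in the L-arginine table, 637 in the untreated table and 632 across both. All p-values come from limma 3.58.1 under R 4.3.3 (lmFit, then eBayes, group and age as terms, Benjamini-Hochberg over all genes, called below 0.05), and the code was tested on simulated data. Figures were drawn with Python 3.11.15. The replicate numbers of a group only follow the order of the labels and pair no arrays across groups.

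The 10 genes and the gene lists were chosen with earlier results of these data known. All 10 enter each comparison and its counts whatever their test; the rule was to name all 10 each time, and some that were not called are given only within a range. Other genes are named only from the lists, or as the gene of highest Pearson's r with a member on at least 26 shared arrays. Alternatives changed the scaling, the filter, the treatment of values of 0 or below, the age term, the trend along the table, probe averaging, weights and moderation, and left out each array in turn. Leaving out the 3 untreated arrays with over 100 values of 0 or below was chosen after seeing the data, as were the correlations without single groups or arrays. Promoter sequences are from RefSeq (GRCm38.p6).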

Additional observations from a re-analysis of the deposited data

Results flagged for a closer look

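Within groups of 4 or 5 arrays, 7 of 72 sets of log2 ratios of the 10 genes (9.72%) had an array farther from the others than Dixon's limit allows, and chance gives about 1 in 20. The sets share arrays and each mixes ages, so no excess over chance can be read from this. In untreated mdx hindlimb, the 12-week Sample 2 was far below the other 4 arrays for Fbxo32 (-2.47) and far above them for Nfe2l1 (1.29). In untreated mdx diaphragm, the 3-week array was far above the other 4 for Psme4 (2.68) and for Psmd2 (1.67). The untreated BL10 diaphragm array at 3 weeks, which holds over 100 values of 0 or below, was far below the other 3 for Psmb10 (-2.18). In L-arginine BL10 muscle, the 12-week hindlimb array was far above the other 3 for Capn1 (1.87), and the 3-week diaphragm array for Bnip3l (0.21).

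The table difference of Nfe2l1 differed between hindlimb and diaphragm by a tested log2 difference of -1.36 (limma, adjusted p 0.0420). It includes the 2 untreated BL10 hindlimb arrays with ratios of 5.49 and 7.58.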

How the results depend on the processing

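Counts below are called members of the 10. The counts of 0 called in both L-arginine strain differences, in untreated diaphragm between strains, for strain by tissue with L-arginine, for both age tests and for both diaphragm table differences stayed at 0 under every alternative run. In untreated hindlimb between strains the count of 1 became 0 with values of 0 or below set to the lowest positive ratio, with values required on every array, without the 12-week arrays and without the 3 untreated arrays with over 100 values of 0 or below, and was 0 to 1 when 1 array was left out. For strain by tissue and for the tissue difference in the untreated table the count of 0 became 1, Nfe2l1, with quantile normalisation, with the table-order trend removed, with no age term and with array weights, and was 0 to 1 when 1 array was left out. In the L-arginine tissue difference the count of 1 became 2 without the BL10 hindlimb array at 9 weeks, and was 0 to 2 when 1 array was left out. In the mdx hindlimb table difference the count of 2 became 0 with arrays scaled to 1 spread and with values of 0 or below set to the lowest positive ratio, 1 with the table-order trend removed and without the 12-week arrays, and 3, with Psme3, under array weights, and was 0 to 3 when 1 array was left out. With values required on every array, Psme3 and Ambra1 were called there and Psme3ip1 was not tested. In BL10 hindlimb the count of 3 became 1 with values required on every array (Psme3), and with array weights, without the 12-week arrays and without the 3 untreated arrays (Nfe2l1). It became 2, with Psme3 lost, with arrays centred on their median (1.18, adjusted p 0.0782), quantile normalisation (0.89, adjusted p 0.161), arrays scaled to 1 spread (0.95, adjusted p 0.148) and the table-order trend removed (0.90, adjusted p 0.125). With values of 0 or below set to the lowest positive ratio it was also 2, Psme3 and Psmb10 (3.52, adjusted p 0.0493), with Nfe2l1 and Bnip3l no longer called. It was 1 to 4 when 1 array was left out. For the table difference by tissue the count of 1 became 2 with array weights, became 0 with arrays scaled to 1 spread, values of 0 or below set to the lowest positive ratio, values required on every array, each probe by itself, without the 12-week arrays, without the L-arginine BL10 hindlimb array at 9 weeks and without the 3 untreated arrays, and was 0 to 2 when 1 array was left out. For the table difference by strain the count of 0 became 1, Nfe2l1, with arrays centred on their median, quantile normalisation, arrays scaled to 1 spread, the table-order trend removed, no age term and array weights, and was 0 to 1 when 1 array was left out.

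With values of 0 or below set to the lowest positive ratio, 4 of the called differences turned their sign: Nfe2l1 between strains in untreated hindlimb (0.66), Nfe2l1 and Bnip3l in the BL10 hindlimb table difference (0.70 and 0.26) and Nfe2l1 in the table difference by tissue (0.43). Differences that were not called are outside this count, and that of Bnip3l between strains in untreated hindlimb turned as well. By its construction this setting brings negative ratios of untreated BL10 hindlimb, at 3 weeks and for Nfe2l1 also at 5, back into the fit. For the other changes the cause was not tested. No paired analysis was possible because the labels give no replicate numbers or animals that tie arrays of different groups together; arrays of the same age were matched through the age term. Over all genes, the number called moved from 19 to between 0 and 85 in the mdx hindlimb table difference, from 31 to between 3 and 79 in BL10 hindlimb, from 4 to between 0 and 25 in mdx diaphragm, from 0 to between 0 and 30 in BL10 diaphragm, from 7 to between 0 and 33 by tissue, from 10 to between 2 and 49 in the L-arginine tissue difference, and from 1 to between 0 and 20 in the L-arginine hindlimb strain difference.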
